A study of Mus musculus with 4 samples.

Results

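Binding of Pax7, a transcription factor of muscle progenitors and satellite cells that carries both a paired domain and a homeodomain, was examined at 10 genes of the Notch pathway. These are the receptors Notch1, Notch2 and Notch3, the ligands Dll1, Jag1 and Jag2, the DNA-binding effector Rbpj and the target genes Hes1, Hey1 and Heyl. A Pax7 ChIP-seq peak was counted for a gene when its summit lay between 100 kb before the start and 100 kb after the end of the gene, and 36 of the 20579 peaks met this rule. The genes were listed by name and no measured value entered the rule. Each of the 36 peaks belonged to only 1 of the 10 genes.

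The cells, called iPax7, were progenitors grown from mouse embryonic stem cells with a Pax7 transgene under the control of doxycycline (Dox). Dox at 1 µg/ml was given from day 3 of differentiation, PDGFRα+FLK1- cells were sorted on day 5, and chromatin was taken on day 9, after 6 days in Dox. The 2 Pax7 ChIP libraries and the 2 input libraries all came from Dox-treated cells, and the authors merged the replicates before they called peaks. The deposited result is therefore 1 list, with no replicate values and no second condition. All counts below describe that list, and none of them could be set against a spread between cultures. Since Pax7 came from a transgene, occupancy at the level of the endogenous gene was not measured. The peak list alone does not show which gene a peak acts on.

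Notch receptors are cut after they meet a ligand on a neighbouring cell, and the released intracellular domain enters the nucleus and joins the DNA-binding protein Rbpj. The complex then turns on repressor genes of the Hes and Hey families. In skeletal muscle the pathway is known for keeping Pax7-expressing satellite cells quiescent and undifferentiated, and Dll1 and Rbpj are needed to keep muscle progenitors in the embryo from differentiating too early.

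The DNA under the summits that carry the results is shown first, as 101 bases of the plus strand of the mm9 (NCBIM37) genome centred on the summit. The first set holds the highest peak of each gene, together with the peaks within 5 kb of an annotated start of the gene. Capitals mark a match to a searched motif. The motifs were GTCACG (the core that a paired domain recognises), ATTAGTCAC (that site joined to a homeodomain site), TAAT and ATTA set 2 bases apart (a homeodomain dimer site), GTGGGAA (Rbpj), CAGCTG (an E-box, bound by basic helix-loop-helix factors), CATTCC (TEAD), TGTGGT (RUNX) and TAATTA (a homeodomain palindrome, added after the sequences were seen). Both strands were searched, so a site on the minus strand appears as its reverse complement. The highest Jag2 peak lies over an annotated UTR and is not printed, and the next highest stands in the second set. Hey1 had no peak.
15408 bp before the 5′ end of Notch1, chr2:26387541-26387641: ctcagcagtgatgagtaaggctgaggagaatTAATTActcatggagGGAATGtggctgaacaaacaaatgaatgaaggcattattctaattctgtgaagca
16028 bp after the 5′ end of Notch1, chr2:26356105-26356205: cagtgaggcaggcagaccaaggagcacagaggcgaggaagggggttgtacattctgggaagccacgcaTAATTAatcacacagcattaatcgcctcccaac
553 bp after the 5′ end of Notch2, chr3:97817964-97818064: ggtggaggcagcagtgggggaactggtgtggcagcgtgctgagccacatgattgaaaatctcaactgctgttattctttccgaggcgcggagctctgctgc
10884 bp after the 5′ end of Notch2, chr3:97828295-97828395: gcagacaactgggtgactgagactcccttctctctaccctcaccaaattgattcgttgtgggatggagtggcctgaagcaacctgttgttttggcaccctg
66273 bp after the 5′ end of Notch3, chr17:32237502-32237602: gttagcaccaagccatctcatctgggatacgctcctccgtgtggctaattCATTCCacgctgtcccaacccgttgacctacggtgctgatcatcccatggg
63845 bp before the 5′ end of Dll1, chr17:15577631-15577731: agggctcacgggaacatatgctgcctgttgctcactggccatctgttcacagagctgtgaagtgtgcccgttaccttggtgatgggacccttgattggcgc
163 bp before the 5′ end of Jag1, chr2:136942493-136942593: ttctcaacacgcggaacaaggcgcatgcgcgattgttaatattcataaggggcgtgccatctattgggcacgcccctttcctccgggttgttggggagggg
36379 bp before the 5′ end of Rbpj, chr5:53910589-53910689: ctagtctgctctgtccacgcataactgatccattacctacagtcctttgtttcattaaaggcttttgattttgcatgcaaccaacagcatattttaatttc
4021 bp after the 5′ end of Hes1, chr16:30068441-30068541: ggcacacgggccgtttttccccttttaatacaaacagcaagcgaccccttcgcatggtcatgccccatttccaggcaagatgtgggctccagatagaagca
51495 bp after the 5′ end of Heyl, chr4:122962244-122962344: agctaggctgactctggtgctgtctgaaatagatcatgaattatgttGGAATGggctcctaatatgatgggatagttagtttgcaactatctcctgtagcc

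The second set holds the peaks with the paired-box core GTCACG, which reads CGTGAC where it lies on the minus strand. A further peak with this core, at the start of Inpp5e near Notch1, lies over a UTR and is not printed.
91046 bp before the 5′ end of Dll1, chr17:15604832-15604932: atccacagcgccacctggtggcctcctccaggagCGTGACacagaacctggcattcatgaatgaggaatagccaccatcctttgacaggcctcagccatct
82208 bp before the 5′ end of Jag2, chr12:114249864-114249964: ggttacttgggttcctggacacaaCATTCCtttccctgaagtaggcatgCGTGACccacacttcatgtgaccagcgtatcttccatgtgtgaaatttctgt
75518 bp before the 5′ end of Jag2, chr12:114243174-114243274: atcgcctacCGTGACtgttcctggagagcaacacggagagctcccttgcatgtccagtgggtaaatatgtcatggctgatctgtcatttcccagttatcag
37759 bp before the 5′ end of Rbpj, chr5:53909209-53909309: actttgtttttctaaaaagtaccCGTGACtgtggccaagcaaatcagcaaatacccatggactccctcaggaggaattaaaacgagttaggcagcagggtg
19446 bp before the 5′ end of Rbpj, chr5:53927522-53927622: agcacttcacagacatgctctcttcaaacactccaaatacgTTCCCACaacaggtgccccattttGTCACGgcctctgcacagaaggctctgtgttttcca
99791 bp before the 5′ end of Hes1, chr16:29964629-29964729: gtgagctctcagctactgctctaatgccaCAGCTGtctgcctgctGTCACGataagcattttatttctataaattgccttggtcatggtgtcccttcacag

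Pax7 peaks were found near 9 of the 10 genes. Rbpj had 8 peaks, Jag2 had 6, Notch1 and Notch2 had 5 each, Hes1 had 4, Notch3 had 3, Dll1 and Jag1 had 2 each and Heyl had 1. Hey1 had none. Of all 22350 protein-coding genes, 75.2% had at least 1 peak within the same distance, a share inside the 95% Wilson interval of 9 in 10 (90.0%, 59.6% to 98.2%). The intervals given for shares cover counting error only. A long gene has a long window, and the count was therefore also divided by the window length. Jag2 had 27.2 peaks per Mb and Rbpj 26.5, which were higher than the values of 92.9% and 92.5% of protein-coding genes. Hes1 had 19.7 peaks per Mb, Notch1 19.3, Notch2 14.8, Notch3 12.2, Dll1 9.55, Jag1 8.50 and Heyl 4.62. The median over the 10 genes was 13.5 peaks per Mb, the median over all protein-coding genes was 9.16, and 7 of the 10 genes lay above the latter. Several windows are shared with many other genes, and the windows of Notch1, Jag2 and Heyl hold the starts of 10, 9 and 7 protein-coding genes, whereas those of Jag1, Hes1 and Hey1 hold 1 each, the gene itself.

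**Figure D1:**
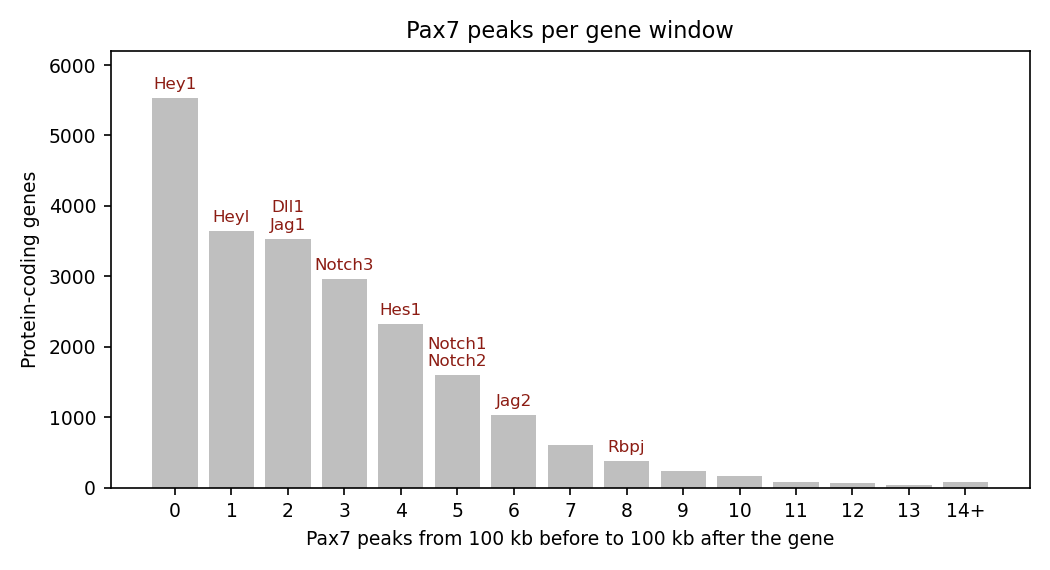
Number of protein-coding genes (vertical axis) by the number of Pax7 peaks from 100 kb before to 100 kb after the gene (horizontal axis, genes with 14 or more together). The 10 Notch pathway genes are written above the bar they fall in, from Hey1 among the 5538 genes with 0 peaks to Rbpj with 8.

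**Figure D2:**
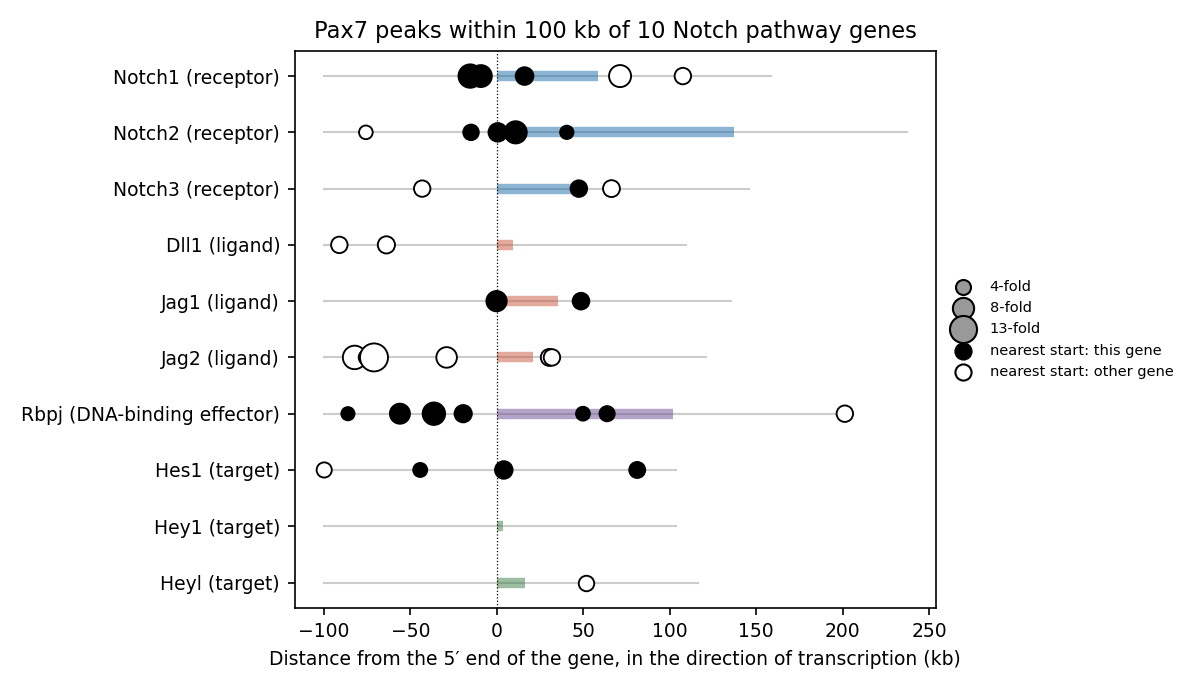
Position of the 36 peaks (circles, area scaled by fold enrichment) by distance in kb from the 5′ end of each gene, read in the direction of transcription. Coloured bars are the genes and grey lines the windows searched. Filled circles are the 20 peaks whose nearest protein-coding start belongs to the gene itself. Open circles are the 16 that lie nearer to a protein-coding start of another gene.

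The height of a peak is given as fold enrichment, the ratio of ChIP signal to local background at the summit. Fold enrichment at the 36 peaks ran from 3.09 to 13.9 with a median of 5.00 (95% exact binomial interval of the median 4.76 to 5.55). The median over all peaks was 5.22. The interval treats the 36 peaks as independent, although they lie in the windows of only 9 genes. At least 5-fold enrichment was reached by 18 of the 36 peaks (50.0%), against 54.9% of all peaks, and at least 8-fold by 7 (19.4%), against 15.2%. The heights of the Notch gene peaks were thus spread around those of the whole list. The number of ChIP fragments behind each summit, worked back from the deposited values, ran from 19 to 91 with a median of 33.5, against a median of 35.0 over all peaks. The exact 95% Poisson interval of the fold enrichment that this number allows, with the background held fixed, is given in brackets after each value below. It lay wholly above the median of all peaks for 10 of the 36 peaks, of which Notch1 and Jag2 held 3 each, Rbpj 2, and Notch2 and Jag1 1 each. It lay wholly below that median for 4 peaks, 2 at Notch2 and 2 at Rbpj. For the other 22 the number of fragments does not separate the peak from a typical peak of the list. No share over all peaks stands beside these counts, so they do not show whether the Notch gene peaks differ from the list.

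**Figure D3:**
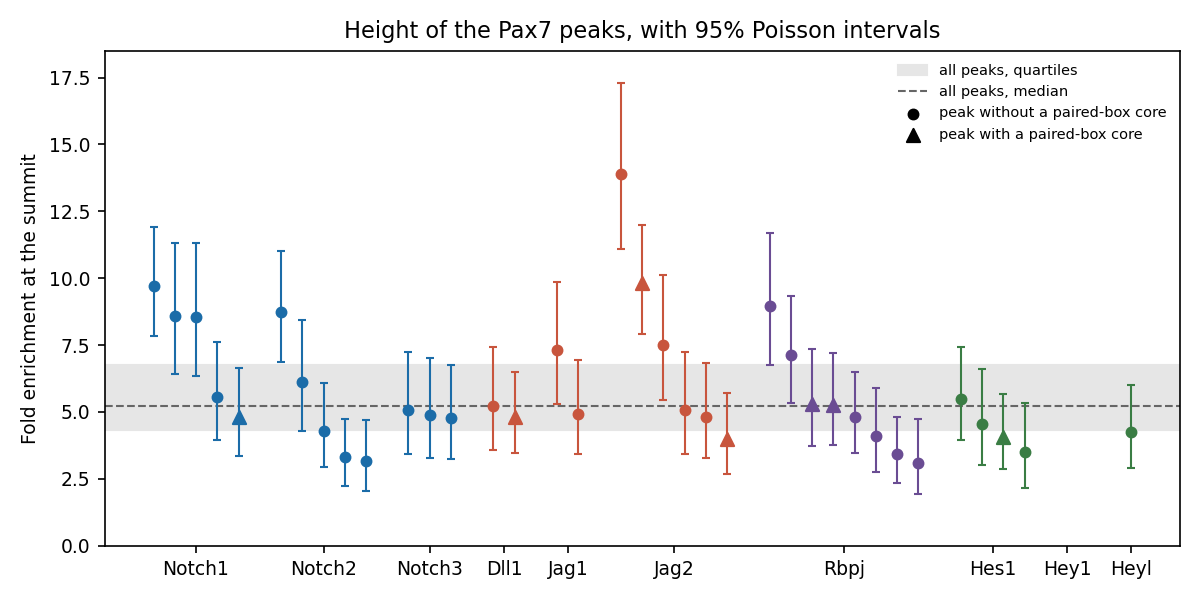
Fold enrichment at the summit (vertical axis) of each peak, grouped by gene and sorted by height within a gene, with exact 95% Poisson intervals for counting error. Triangles hold a paired-box core within 50 bp of the summit. The grey band spans the quartiles of all peaks (4.32 to 6.74) and the dashed line their median of 5.22. The Jag2 peak of 13.9-fold stands highest and Hey1 has no point.

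The receptor gene Notch1 (ENSMUSG00000026923, chr2:26313423-26372183, minus strand) had 2 peaks upstream, 1 inside and 2 downstream. The highest, at chr2:26387431-26387771, lay 15.4 kb before the annotated 5′ end of the gene in intergenic DNA and reached 9.70-fold (7.82 to 11.9) from 90 fragments over a background of 8.00. The next upstream peak, 9.24 kb before the 5′ end, reached 8.54-fold (6.35 to 11.3) from 48 fragments over a background of 4.50. These 2 peaks were 6.17 kb apart, and from the start of the longest coding Notch1 transcript they lay 22.4 and 16.2 kb upstream. Their intervals overlap, so they could not be ranked by height at this depth. A smaller peak of 5.55-fold (3.94 to 7.63) lay inside the gene, in intron 2 of its longest transcript and over an exon of a shorter one, 3.19 kb after the nearest annotated coding start. The 2 peaks beyond the 3′ end sat at starts of other genes. The peak of 8.59-fold (6.42 to 11.3) was 204 bp from a start of Sec16a, and that of 4.80-fold (3.37 to 6.65) was 2 bp from a start of Inpp5e.

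Notch2 (ENSMUSG00000027878, chr3:97817461-97954290, plus strand), a receptor that like Notch1 is active in satellite cells, had 3 of its 5 peaks inside the gene. The highest, at chr3:97828037-97828760, lay in intron 1, 10.9 kb after the start, and reached 8.75-fold (6.88 to 11.0) from 72 fragments. At 724 bp it was also the widest of the 36 peaks, whose median width was 248 bp. A peak of 6.10-fold (4.30 to 8.42) lay 553 bp after the start, which made Notch2 the only receptor gene of the 3 with a summit within 1 kb of its own start. The other peaks were lower. They reached 4.30-fold (2.95 to 6.08) at 14.9 kb upstream, 3.31-fold (2.22 to 4.75) at 75.7 kb upstream and 3.16-fold (2.03 to 4.70) at 40.5 kb inside the gene, in intron 2. The peak 75.7 kb upstream lies in an intron of Gm5544 and closer to the start of Sec22b than to that of Notch2.

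Notch3 (ENSMUSG00000038146, chr17:32257765-32303825, minus strand), a receptor found in satellite cells and in vessel walls, had 3 peaks of similar height and none inside the gene. They reached 5.06-fold (3.42 to 7.23) at 66.3 kb after the 5′ end, 4.88-fold (3.28 to 7.02) at 47.4 kb and 4.76-fold (3.25 to 6.77) at 43.1 kb upstream. All 3 intervals overlap and span the median of all peaks. The peak at 47.4 kb lay 1.36 kb beyond the 3′ end of Notch3. Among the receptor genes, high peaks were thus found in the windows of Notch1 and Notch2, with 3 and 1 peaks of at least 8-fold, and Notch3 had none of that height. The Notch1 count includes the peak at the start of Sec16a. Of all peaks 15.2% reached 8-fold, so the lack of such a peak among 3 does not set Notch3 apart.

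Among the ligand genes, Jag2 (ENSMUSG00000002799, chr12:114146801-114167706, minus strand) had the most and the highest peaks, but for none of its 6 peaks was the nearest protein-coding start that of Jag2. The highest of all 36 peaks, 13.9-fold (11.1 to 17.3) from 79 fragments over a background of 4.50, lay 71.0 kb upstream of Jag2 and 119 bp from a start of Brf1, a subunit of an RNA polymerase III initiation factor. Its rank in the whole list was 328, and its summit window had a GC content of 78.2%, the highest of the 36, whose median was 49.5%. The peak of 9.80-fold (7.92 to 12.0), from 91 fragments, lay 82.2 kb upstream of Jag2 and 2.81 kb from a start of Pacs2. Between the 2 lay a peak of 3.98-fold (2.69 to 5.69), 4.51 kb from the Brf1 peak. Nearer to Jag2, a peak of 7.50-fold (5.45 to 10.1) lay 29.0 kb upstream in intergenic DNA. Beyond the 3′ end, peaks of 5.06-fold (3.42 to 7.23) and 4.80-fold (3.27 to 6.82) lay only 1.56 kb apart, 30.3 and 31.9 kb after the 5′ end of Jag2 and closer to a start of Gm17723.

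Jag1 (ENSMUSG00000027276, chr2:136907192-136942380, minus strand), a ligand of the same Serrate type as Jag2, showed the other pattern, with few peaks and 1 of them at its own start. The peak at chr2:136942395-136942665 had its summit 163 bp before the start and reached 7.32-fold (5.31 to 9.87) from 41 fragments. It was the nearest of all 36 summits to the start of its gene. The other Jag1 peak, of 4.94-fold (3.41 to 6.94), lay 48.7 kb after the start and over the last exon of 2210009G21Rik. For both, the nearest protein-coding start was that of Jag1, although the second summit lies inside 2210009G21Rik, which is itself a protein-coding gene.

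Dll1 (ENSMUSG00000014773, chr17:15504318-15513836, minus strand), the Delta-type ligand of muscle progenitors, had only distant peaks. They reached 5.23-fold (3.56 to 7.44) at 63.8 kb and 4.80-fold (3.45 to 6.51) at 91.0 kb upstream, with overlapping intervals. Both lay nearer to starts of other genes, Fam120b and Psmb1, and no summit lay within 50 kb of Dll1.

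Rbpj (ENSMUSG00000039191, chr5:53947018-54048684, plus strand), which brings the receptor's intracellular domain to DNA, had the most peaks of the 10 genes. Fewer than its 8 peaks were found at 95.2% of protein-coding genes. The upstream side held 5 of them, and for all 5 the nearest protein-coding start was that of Rbpj. The highest, at chr5:53910265-53910774, lay 36.4 kb before the start and reached 8.96-fold (6.75 to 11.7) from 53 fragments. Its neighbour 1.38 kb further upstream reached 5.27-fold (3.76 to 7.21), and these were the closest pair among the 36 peaks. Peaks of 7.13-fold (5.34 to 9.33) and 5.31-fold (3.73 to 7.36) lay 56.0 and 19.4 kb upstream. The remaining 4 peaks ran from 3.09-fold to 4.80-fold, with 2 of them in intron 1 of the longest transcript. No summit lay within 5 kb of an annotated Rbpj start.

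Of the target genes, Hes1 (ENSMUSG00000022528, chr16:30064470-30067882, plus strand), a repressor that is the best known target of Notch, had 4 peaks. The highest, at chr16:30068395-30068646, reached 5.48-fold (3.94 to 7.44) from 39 fragments and lay 4.02 kb after the 5′ end, which is 0.609 kb beyond the 3′ end of this short gene. The others reached 4.54-fold (3.00 to 6.61) at 81.2 kb downstream, 4.08-fold (2.85 to 5.68) at 99.8 kb upstream and 3.49-fold (2.17 to 5.35) at 44.3 kb upstream. The last of these lay over the final exon of the long noncoding RNA gene 4632428C04Rik. The peak at 99.8 kb lay only 2.29 kb from a start of the protein-coding gene Gm1968. Heyl (ENSMUSG00000032744, chr4:122910799-122927118, plus strand), a repressor of the Hey family, had a single peak of 4.25-fold (2.92 to 6.01) in intron 1 of Pabpc4, 51.5 kb after the Heyl start and 1.96 kb from a start of Pabpc4. Hey1 (ENSMUSG00000040289, chr3:8663362-8667039, minus strand), of the same family, had no peak, which 24.8% of protein-coding genes share. No peak of a target gene reached 8-fold, which 15.2% of all peaks did. With only 4 peaks at Hes1 and 1 at Heyl, this lack does not set the target genes apart.

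The window edge fell close to a few peaks. Just inside it were the Hes1 peak at 99.8 kb and an Rbpj peak of 4.80-fold at 99.5 kb beyond the gene. Just outside it were a peak of 4.64-fold at 103 kb from Hey1 and a peak of 4.16-fold at 103 kb from Notch1.

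Most of the peaks were far from the starts of the Notch genes, which windows of 203 to 337 kb favour by construction. Of the 36 summits, 31 (86.1%) lay over 10 kb from any annotated start of their gene. A summit within 5 kb of 1 of their starts was found at 4 of the 10 genes (40.0%, 16.8% to 68.7%), Notch1, Notch2, Jag1 and Hes1. Among all protein-coding genes 21.7% had such a summit, a share inside that interval. A summit inside the gene was found at 3 of the 10 genes (30.0%, 10.8% to 60.3%), Notch1, Notch2 and Rbpj. This interval holds the 22.3% of all protein-coding genes. Upstream of the genes there were 19 peaks with a median of 5.27-fold, 6 inside with a median of 4.82-fold and 11 downstream with a median of 4.88-fold. The 86.1% and these counts by side have no share over the windows of other genes beside them. With respect to all annotated genes, 19 summits were intergenic (52.8%, 37.0% to 68.0%), against 39.0% of all peaks, and 8 were in introns (22.2%, 11.7% to 38.1%), against 42.1%. A further 3 were in exons (8.33%, 2.87% to 21.8%), against 2.55%. The interval for introns lies below the share of all peaks and that for exons above it. These intervals treat the peaks as independent, although they lie in the windows of only 9 genes, and no difference was tested. The shares of all peaks come from the whole genome, whereas the windows add 100 kb on either side of each gene. How much intron, exon and intergenic DNA the windows hold was not matched, so these shares also depend on the window rule. The exon share rests on 3 summits, of which the Notch1 summit lies in an intron of the longest transcript. The remaining 6 (16.7%, 7.87% to 31.9%) lay within 1 kb of a start of any gene, against 16.3% of all peaks. Of these 6, only the peaks at Notch2 and Jag1 were at the start of a Notch gene, and the other 4 were at starts of Sec16a, Inpp5e, Brf1 and the pseudogene Pdxk-ps.

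The nearest protein-coding start belonged to the Notch gene itself for 20 of the 36 peaks (55.6%, 39.6% to 70.5%). By gene these were 7 of 8 peaks at Rbpj, 4 of 5 at Notch2, 3 of 5 at Notch1, 3 of 4 at Hes1, 2 of 2 at Jag1 and 1 of 3 at Notch3, and none at Dll1, Jag2 and Heyl. The median fold enrichment was 5.29 for these 20 peaks and 4.80 for the 16 that were nearer to a start of another gene. The 55.6% has no share over the windows of other genes beside it. The windows also differ in the starts they hold, with those of 2 protein-coding genes at Rbpj and of 9 at Jag2.

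The paired-box core GTCACG lay within 50 bp of 7 of the 36 summits (19.4%, 9.75% to 35.0%), against 11.1% of all peaks, a share inside that interval. In windows of the same length 500 bp to either side it was found in 0 of 72, which allows a share of up to 4.17%, and in 1.28% of the flanking windows of all peaks. The peaks with the core were the 2 Jag2 peaks at 82.2 and 75.5 kb upstream, the 2 Rbpj peaks at 37.8 and 19.4 kb upstream, the Dll1 peak at 91.0 kb upstream, the Hes1 peak at 99.8 kb upstream and the Notch1 window's peak at the start of Inpp5e. Its centre lay 1.5 bp from the summit in the 9.80-fold Jag2 peak and 2.5 bp from it in the Hes1 peak. In the other 5 it lay between 13.5 and 38.5 bp away. For 5 of the 7 peaks with the core the nearest protein-coding start was that of another gene, against 16 of all 36 (44.4%). These genes were Pacs2 and Brf1 for the Jag2 peaks, Psmb1 for Dll1, Gm1968 for Hes1 and Inpp5e for Notch1. Only the 2 Rbpj peaks with the core were nearest to a start of their own gene. All 3 Pax motifs together, which add the joined site and the dimer site, were at the same 7 summits, against 12.8% of all peaks, since the joined site and the dimer site were each found at 0 of 36 (which allows up to 8.33%). The 7 peaks with a core had a median of 4.80-fold and the 29 without a median of 5.06-fold. Over all peaks the order was the reverse. Those with any of the 3 Pax motifs had a median of 5.58-fold and those without 5.12-fold. The 7 peaks therefore do not show that a core goes with a lower peak. Of the 7 peaks of at least 8-fold, only the Jag2 peak at 82.2 kb held the core. No share over all peaks of that height stands beside this count.

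The homeodomain palindrome TAATTA was at 4 summits (11.1%), against 6.13% of all peaks. These were the 9.70-fold and 5.55-fold peaks of Notch1, where it can be read in the sequences above, the Notch3 peak at 47.4 kb and the Rbpj peak 201 kb after the start. None of these held GTCACG. The Rbpj site GTGGGAA was at 2 summits (5.56%, 1.54% to 18.1%), against 2.14% of all peaks and 2.02% of their flanking windows. They were the Rbpj peak 19.4 kb upstream and the Hes1 peak 44.3 kb upstream. The former also held the paired-box core, so that its window carries a match for Rbpj 6 bp and a match for Pax7 17.5 bp from the summit, on opposite sides. The TEAD site CATTCC was at 6 summits (16.7%, 7.87% to 31.9%), against 11.0% of all peaks, and within 2.5 bp of the summit in 3 of them, the highest peaks of Notch1, Notch3 and Heyl. The E-box CAGCTG was at 4 summits (11.1%), against 15.7%, and the RUNX site TGTGGT at 2 (5.56%), against 9.73%. Each interval spans the share of all peaks. The highest peaks of Notch2, Dll1, Jag1, Jag2, Rbpj and Hes1 held none of the 8 motifs, which says only that these letters are not in those windows.

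**Figure D4:**
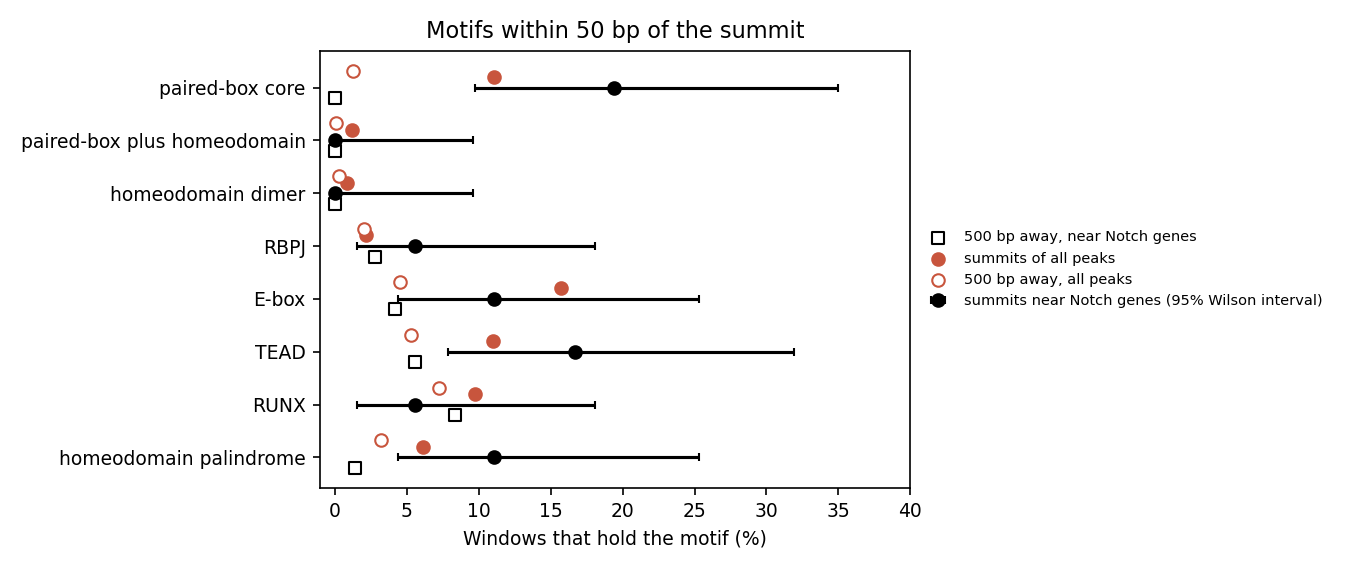
Share of 101 bp windows that hold each motif (horizontal axis, %). Black circles are the 36 summits near Notch genes with 95% Wilson intervals, black squares their 72 flanking windows, filled red circles all 20579 summits and open red circles the flanking windows of all peaks. The paired-box core stands at 19.4% of the Notch summits and at 0 of the flanking windows.

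The rest of the pathway was described from a list of 46 further genes, from receptors to targets. At least 1 peak lay within 100 kb of 43 of them (93.5%, 82.5% to 97.8%), against the 75.2% of all protein-coding genes given above, with 170 gene-peak pairs made by 169 peaks, none of them among the 36. The median was 14.1 peaks per Mb of window, next to 13.5 for the 10 genes, and 34 of the 46 lay above the median of all protein-coding genes. A summit within 5 kb of a start was found at 15 of the 46 (32.6%, 20.9% to 47.0%), an interval that holds the 21.7% of all protein-coding genes.

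By role, Notch4, the remaining receptor, had 1 peak of 3.70-fold. The 5 other ligand genes all had peaks, led by Dll3 with 4 and Dll4 with 3, while Dlk1, Dlk2 and Dner had 2 each. The highest peak of this role was 13.2-fold, near Dlk1, and no summit lay within 5 kb of their starts. Mib2, a ubiquitin ligase that acts on ligands, had 6 peaks, the highest of 20.6-fold, and Neurl1a had 4, while Mib1, the main ligase for ligand uptake, had none. No Mib2 peak lay inside the gene or within 5 kb of a start of it. Windows of these further genes can also hold starts of other genes, and the nearest gene of their peaks is not given. Of the 5 glycosyltransferases that modify the receptors, Lfng had 6 peaks, the highest of 12.6-fold, and Pofut1, Mfng and Rfng had 4 each.

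Among the 9 genes for proteases of the pathway and their subunits, 3 subunits of gamma-secretase led, with 10 peaks for Aph1a, 8 for Psen2 and 6 for Ncstn. The 48.9 peaks per Mb at Aph1a were more than at 99.5% of protein-coding genes, while the highest of its peaks was only 6.02-fold. Of the 7 genes of the nuclear complex and its partners, the coactivator gene Maml3 had 13 peaks, 11 of them inside the gene of 417 kb, Maml1 had 6, and Maml2 and Ep300 had 4 each. The 9 genes for inhibitors and turnover all had peaks and 6 of them had a summit within 5 kb of a start. Fbxw7, whose product marks the intracellular domain for destruction, had 8 peaks and Dtx3 had 6, and Numb, Numbl, Itch, Dtx2 and Nrarp had 5 each. The 7 further target genes had 10 peaks in all, with 3 at Hes7, 2 each at Hes6, Myc and Ccnd1, 1 at Bhlhe41 and none at Hes5 and Hey2.

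**Figure D5:**
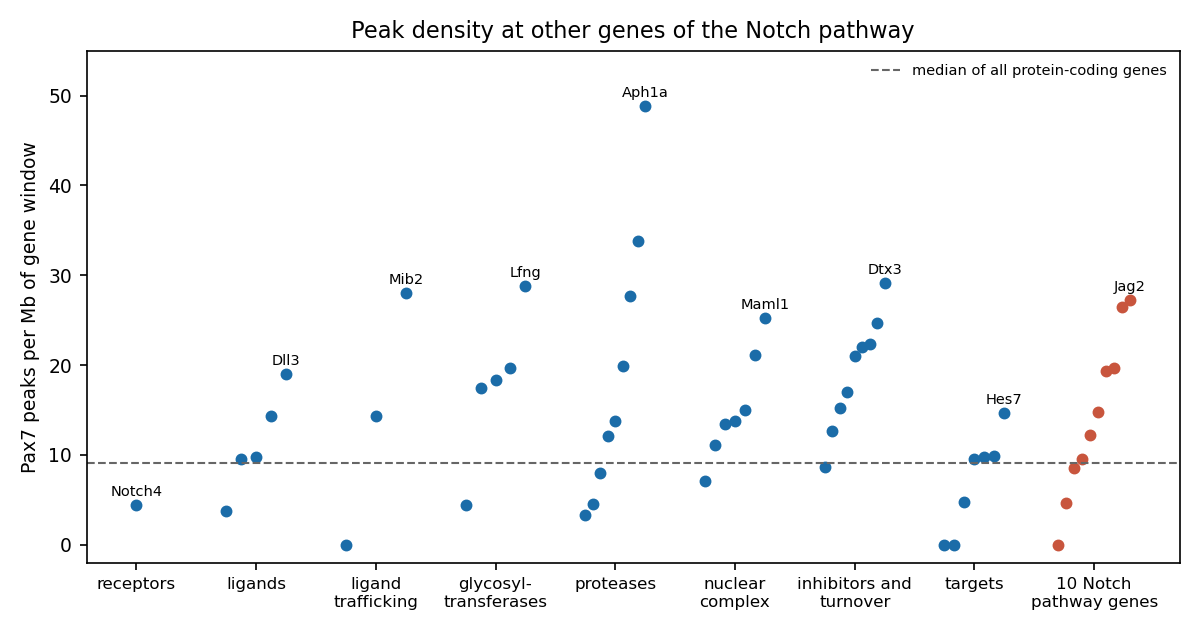
Pax7 peaks per Mb of gene window (vertical axis) for 46 other genes of the Notch pathway by role (blue) and for the 10 genes described here (red), with the densest gene of each group named. The dashed line is the median of all protein-coding genes, 9.16 peaks per Mb. Aph1a stands highest with 48.9, and Hes5, Hey2 and Mib1 stand at 0.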

How the data were processed

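Pax7 ChIP and input reads of iPax7 progenitors were processed by the authors, who aligned them to NCBIM37/mm9, kept uniquely mapped reads without PCR duplicates, merged replicates and called peaks with MACS2 (largest q-value accepted, 0.01). The authors deposited 1 list in which each peak has a fold enrichment (a ratio of ChIP signal to local background at the summit), its p-value as −log10 and its q-value as −log10, a score (10 times the latter, cut to a whole number) and an offset from the peak start to the summit. Columns of single samples that could not be assigned numbered 0. The list holds no read totals, so the depth of each library is not known from it.

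Summits were placed on GENCODE vM1, which uses the same build. Coordinates are 1-based. A position within 1 kb of an annotated start counted as such before exon, intron or intergenic. Distances of a peak run from the 5′ end of the gene unless another start is named.

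The number of fragments at a summit was derived from the deposited values. MACS2 adds 1 to both sides of the ratio, so the fold enrichment and the p-value of a peak fix a whole number of fragments and a background. The fragment scale (0.959) and the lowest background (4.50) were fitted to the list. For 99.5% of the 20579 peaks, and for all 36 peaks described, exactly 1 whole number gave the deposited −log10 p within 0.01. Intervals built on it cover counting error only, since reads are not independent molecules.

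The scripts ran in Python 3.11 and were tested on simulated data. The genes, lists and motifs were chosen with earlier results of these data known. Named were all 10 genes; every peak of a gene with up to 6 peaks; for Rbpj the 3 highest, those within 5 kb of a start and those with GTCACG; and of the other pathway genes the 3 with the most peaks in each role, ties included, and those with none. Sequences with GTCACG that this rule did not call for were added after they were seen. No test was run, since peaks of 1 pooled list have no replicates. Alternatives were a −log10 q of at least 5, a fold enrichment of at least 5, merging peaks within 500 bp, any overlap, windows of 50 and 200 kb, other distances to starts, motif windows of 25 and 100 bp, and leaving out each gene.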

Additional observations from a re-analysis of the deposited data

How the results depend on the processing

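With a fold enrichment of at least 5 the 36 peaks fell to 18, and with windows of 200 kb they rose to 68, as fewer peaks or more sequence enter by construction. The share of summits near a start of any gene was 38.9% at 5 kb in place of 16.7% at 1 kb. The number of genes with a peak was 8 with at least 5-fold peaks (Heyl lost its peak), 8 with windows of 50 kb (Dll1 lost both) and 10 with windows of 200 kb, where 61.3%, 62.1% and 84.6% of protein-coding genes had one. The median fold enrichment stayed between 4.88 and 5.06 when each gene was left out. A further 3 alternatives for the share of Pax motifs ran from 11.1% to 30.6%, the highest with TAATTA counted as a Pax motif, which was chosen after seeing the data. By the start of any annotated gene, 16 peaks rather than 20 were nearest to their Notch gene. No paired analysis was possible because the replicates were merged before peaks were called, and no result comes from a test.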

Other observations

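Beyond the 100 kb windows, 32 further peaks lay between 100 and 200 kb of the genes. Hes1 had 7 of them, the highest of 11.7-fold (9.27 to 14.6) at chr16:29950192-29950584, 114 kb upstream and 12.0 kb from a start of Gm1968. This is over the 5.48-fold of its highest peak within 100 kb, and the intervals do not overlap. Notch2 had 3, with 11.4-fold (9.31 to 13.9) at 183 kb upstream, inside Pde4dip. Rbpj had 6, with 9.07-fold (6.87 to 11.8) at 178 kb upstream. Heyl had 5, all inside the cytoskeletal gene Macf1 and the highest of 9.46-fold (7.38 to 11.9), and Hey1 had 3, all inside Stmn2 and the highest of 6.91-fold (4.98 to 9.34). Jag1 and Jag2 had none between 100 and 200 kb.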
